A study of Mus musculus with 9 samples.

Results

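Ly6d and 7 genes known from foetal liver and liver tumours (Afp, H19, Igf2, Gpc3, Cd24a, Sox9 and Epcam) were followed in mouse liver. These 8 of the 55253 gene symbols in the deposited table were taken by symbol, and they were chosen from an earlier reading of the same comparison, in which Ly6d had the second highest log2 difference of all genes tested. Their values are therefore a description. Intervals and calls given for them come from the fit over all genes and are no independent support for a difference that guided the choice. The study measured 9 livers of male C57Bl/6J mice by 3′ mRNA sequencing, which reads the ends of polyadenylated transcripts. In 5 mice, a Western diet was combined with 10% alcohol in sweetened water for 23 weeks from 10 weeks of age (the WD+alcohol group), and 4 mice on chow and tap water over the same time were controls. Diet, alcohol and sweetening came together, so their effects cannot be told apart. Each library is taken as 1 mouse, since the series names as many mice as libraries.

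Alpha-fetoprotein (Afp) is the main serum protein of the foetal liver and is shut down after birth. H19, a maternally expressed imprinted RNA, and its neighbour Igf2, a paternally expressed growth factor, are abundant in the foetus and fall silent in the adult liver, and Gpc3, a heparan sulphate proteoglycan of the cell surface, follows the same course. All of these can return in hepatocellular tumours. Cd24a, Sox9 and Epcam mark bile duct cells and progenitor-like cells of the ductular reaction to liver injury. Ly6d, a small protein held at the membrane by a GPI anchor, is best known from squamous epithelium and from lymphoid progenitors committed to the B lineage.

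The coding sequence of Ly6d, the member with the largest difference, shows the cysteine pattern that defines the Ly6/uPAR fold. It has 127 codons before the stop, 11 of them for cysteine, and 10 of these lie within the first 100 codons. Those 100 codons are printed 5′ to 3′ from the GENCODE M21 transcript (GRCm38, minus strand of chromosome 15), with cysteine codons in capitals.
Ly6d, codons 1 to 100: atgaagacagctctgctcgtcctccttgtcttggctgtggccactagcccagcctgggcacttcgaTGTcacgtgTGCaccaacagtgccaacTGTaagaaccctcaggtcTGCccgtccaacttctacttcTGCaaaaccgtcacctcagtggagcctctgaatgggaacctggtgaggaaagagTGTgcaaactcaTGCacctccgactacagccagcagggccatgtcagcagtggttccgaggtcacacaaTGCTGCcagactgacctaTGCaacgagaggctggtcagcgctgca

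Ly6d rose. In WD+alcohol libraries 1 to 5 its level was 74.9, 44.6, 21.8, 3.94 and 92.1 CPM (read counts scaled for library size by the authors with TMM). In controls 1 to 4 it was 0.82, 1.89, 0.52 and 0.57 CPM. All WD+alcohol livers lay above all controls, but they differed widely among themselves, and WD+alcohol 4 was only 2.08 times the highest control while WD+alcohol 5 was 48.7 times that value. These levels rest on 1172 reads in the WD+alcohol group, 26 of them in WD+alcohol 4, and on 20 reads in controls, from 3 to 9 per library. The mean was 47.5 ± 36.4 CPM (SD, n = 5) against 0.95 ± 0.64 CPM (SD, n = 4). As a difference in log2(CPM + 1), which understates the change of a gene this low in controls, Ly6d stood 4.11 higher (95% interval 2.70 to 5.52). Libraries 5 and 1 together held most of the group's signal, with 38.8% and 31.6% of the summed level, and WD+alcohol 4 held 1.66%. Without WD+alcohol 4 the log2 difference was 4.79, and it ranged from 3.73 to 4.32 when any other library was left out.

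Of the 8 genes, 5 had a mean of at least 1 CPM over the 9 libraries and entered the fit over 14759 genes (limma-trend, adjusted p under 0.05). Among those 5, Ly6d was the only one called, whereas 2.29% of all tested genes were called, 1.61% higher and 0.678% lower. It was also the only 1 of the 5 whose groups did not overlap, a pattern seen in 5.34% of all tested genes. Because Ly6d was picked for this difference, and passed the level filter only through the WD+alcohol group (its control mean was 0.95 CPM), nothing is read from either share. Robust limma-trend gave Ly6d an adjusted p of 0.0680, so the call was lost there. Livers are mixtures of cells, so more cells with the transcript and more transcript per cell cannot be told apart for any gene here.

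**Figure D1:**
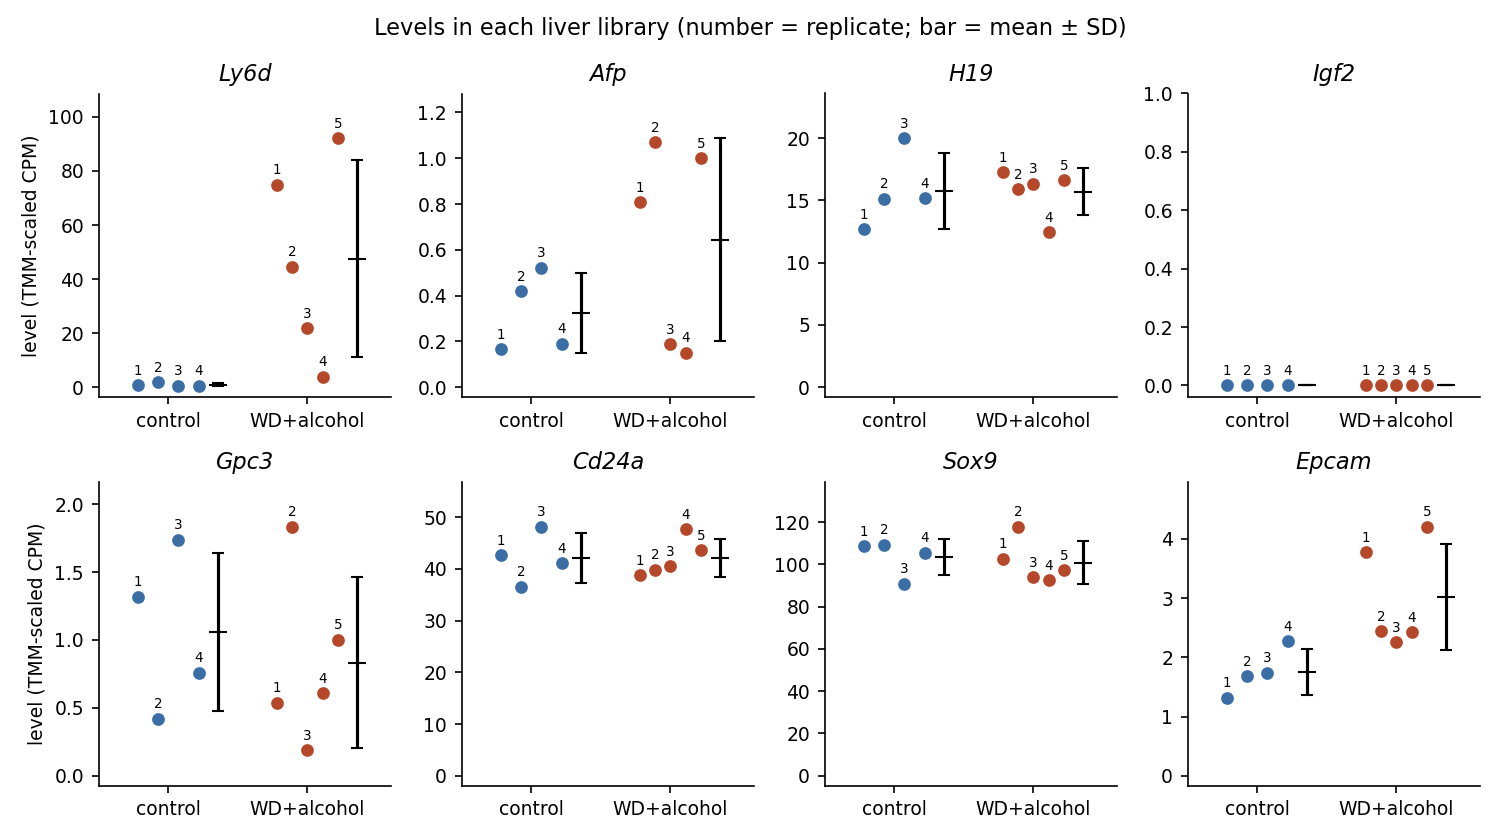
Level of each of the 8 genes in TMM-scaled CPM (y axis, from 0, a different scale in each panel) in 4 control and 5 WD+alcohol livers; points are libraries with their replicate number, and the black mark is the mean ± SD. Ly6d spreads from 3.94 to 92.1 CPM with WD+alcohol and stays at or under 1.89 CPM in controls, whereas the groups overlap for the other genes and Igf2 is at 0 throughout.

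Afp was near the limit of detection in every liver. It had 3, 7, 1, 1 and 5 reads in WD+alcohol libraries 1 to 5 and 1, 2, 3 and 1 reads in controls 1 to 4. These correspond to 0.64 ± 0.44 CPM (SD, n = 5) and 0.32 ± 0.17 CPM (SD, n = 4), below the level at which genes were tested. The groups overlapped, and WD+alcohol 3 and 4 were as low as the lowest controls. WD+alcohol 1, 2 and 5, the 3 livers with the most Ly6d, were also the 3 with the most Afp, on the few reads given above. Over the 9 libraries the spread of Afp was 74.1% of its mean, where counting error alone gives 61.4%.

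Gpc3 was also scarce, with 24 reads in each group. Its level was 0.83 ± 0.63 CPM (SD, n = 5) with WD+alcohol, from 0.19 to 1.83 CPM, and 1.06 ± 0.59 CPM (SD, n = 4) in controls, from 0.42 to 1.74 CPM. The highest and the lowest liver were both in the WD+alcohol group. No difference was detectable at this depth, where 1 read was worth 0.152 to 0.270 CPM.

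The promoters of Afp and Gpc3 are shown because both foetal genes were barely detected here and their windows hold different motif letters. Both come from RefSeq on GRCm38.p6 and cover 250 bases before to 50 after the start site. Capitals mark matches on either strand to the letters of a TATA box (TATAAA), a core HNF1 site (GTTAAT), a core nuclear receptor site (AGGTCA), a forkhead core (TGTTTA) or a GC box (GGGCGG), and no match overlaps another.
Afp, chr5:90490464-90490763, plus strand: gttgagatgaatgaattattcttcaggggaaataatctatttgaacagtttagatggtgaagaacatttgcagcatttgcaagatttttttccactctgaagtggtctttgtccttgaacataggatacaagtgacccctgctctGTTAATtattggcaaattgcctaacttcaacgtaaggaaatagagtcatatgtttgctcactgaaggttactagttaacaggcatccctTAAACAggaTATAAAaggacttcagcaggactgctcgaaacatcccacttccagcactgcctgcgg
Gpc3, chrX:52613925-52614224, minus strand: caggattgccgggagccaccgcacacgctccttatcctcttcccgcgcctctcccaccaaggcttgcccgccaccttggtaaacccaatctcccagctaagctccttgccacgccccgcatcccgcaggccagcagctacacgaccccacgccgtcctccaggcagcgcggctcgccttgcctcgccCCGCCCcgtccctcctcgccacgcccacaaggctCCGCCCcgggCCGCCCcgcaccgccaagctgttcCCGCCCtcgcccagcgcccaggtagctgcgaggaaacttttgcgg

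The Afp window held 1 core HNF1 site, 1 forkhead core and 1 TATA box, and the Gpc3 window held 4 GC boxes and none of the other letters. Among 32851 RefSeq promoters of this length, 7.10% held the HNF1 letters, 13.4% the forkhead letters, 13.6% the TATA letters, 16.3% the nuclear receptor letters and 35.7% the GC box letters. Promoters of 4 of the 8 genes were in the table (Afp, Igf2, Gpc3 and Epcam). These matches are a description of the letters and say nothing of which factors were bound.

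H19 was detected in every liver and was flat. It measured 17.2, 15.9, 16.3, 12.4 and 16.6 CPM in WD+alcohol libraries 1 to 5 and 12.7, 15.1, 20.0 and 15.2 CPM in controls 1 to 4. The 2 extremes of the controls enclose all but 1 of the WD+alcohol values, and the exception, WD+alcohol 4, was just below the lowest control. Mean levels were 15.7 ± 1.90 CPM (SD, n = 5) and 15.7 ± 3.06 CPM (SD, n = 4), a log2 difference of 0.01 (95% interval -0.30 to 0.31). Such a level in controls is at odds with a gene that falls silent in adult liver. Hmga2, another foetal gene, was higher still in controls, at 221 ± 21.6 CPM. What these levels reflect was not tested, so the flat H19 is not read as absence of a foetal response. H19 is the primary transcript of miR-675, and the separate Mir675 entry was listed at 0 in all 9 libraries. The mature miR-675 strands, which 3′ mRNA libraries are not made to capture, are given from RefSeq (GRCm38.p6, minus strand of chr7) with the seed, bases 2 to 8, in capitals.
miR-675-5p, chr7:142577112-142577133: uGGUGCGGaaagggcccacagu
miR-675-3p, chr7:142577078-142577099: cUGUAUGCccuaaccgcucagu

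Igf2 was listed at 0 in all 9 libraries. This 0 cannot be read as absence. In GENCODE M21, 62.8% of the exon bases of Igf2 also belong to Gm49394, a gene on the same strand that was likewise listed at 0, and the sources used here do not say how reads in shared exons were counted. Aldoa, a glycolytic enzyme that cells in general use, was also listed at 0 in every library. No gene on its strand shared its exons in GENCODE M21, and 0.67% of its exon bases lay opposite another gene. Why Igf2 and Aldoa were listed at 0 was not tested. Next to Igf2 in the RefSeq gene order, Mir483, Igf2os and Ins2 were at 0 as well. No exon of Ly6d, Afp, Gpc3, Cd24a, Sox9 or Epcam overlapped another gene in that annotation.

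Cd24a, a short mucin-like protein on a GPI anchor, was 38.8, 39.9, 40.5, 47.7 and 43.6 CPM in WD+alcohol libraries 1 to 5 and 42.7, 36.6, 48.1 and 41.1 CPM in controls 1 to 4. All 5 WD+alcohol values fell inside the range of the controls. The means were 42.1 ± 3.61 CPM (SD, n = 5) and 42.1 ± 4.78 CPM (SD, n = 4), with a log2 difference of 0.003 (95% interval -0.21 to 0.21). The sources used here do not say what was done with reads that match several places, so reads shared with any close copy of Cd24a would not show.

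Sox9, the transcription factor of bile duct cells and of some periportal hepatocytes, was 103, 118, 94.0, 92.6 and 97.3 CPM in WD+alcohol libraries 1 to 5. In controls 1 to 4 it was 109, 109, 90.9 and 105.5 CPM. The lowest value was a control and the highest a WD+alcohol liver. Its means were 101 ± 10.2 CPM (SD, n = 5) and 104 ± 8.64 CPM (SD, n = 4), with a log2 difference of -0.04 (95% interval -0.23 to 0.15), which turned to 0.01 when all libraries were rescaled to one total. In controls Sox9 stood far above the bile duct genes Krt19 (3.11 CPM), Epcam (1.75 CPM) and Krt7 (0.58 CPM). Which cells gave the Sox9 and Cd24a reads was not tested, so neither level is read as a measure of bile duct cells.

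Epcam, an adhesion molecule of bile duct epithelium, was 3.77, 2.44, 2.25, 2.42 and 4.20 CPM in WD+alcohol libraries 1 to 5 and 1.32, 1.68, 1.74 and 2.27 CPM in controls 1 to 4. These values rest on 12 to 21 reads per WD+alcohol library and 8 to 12 per control. Only WD+alcohol 3 and control 4 overlapped, by 1 position in the order of the 9 livers. The means were 3.02 ± 0.90 CPM (SD, n = 5) and 1.75 ± 0.39 CPM (SD, n = 4), and the log2 difference was 0.53 (95% interval, not adjusted for the number of genes, 0.06 to 0.99). Epcam did not pass the threshold over all genes, and its log2 difference lay between 0.43 and 0.62 when each library was left out, at 0.24 with a pseudocount of 5 and at 0.76 with both edgeR and DESeq2, with no call in any of these.

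**Figure D2:**
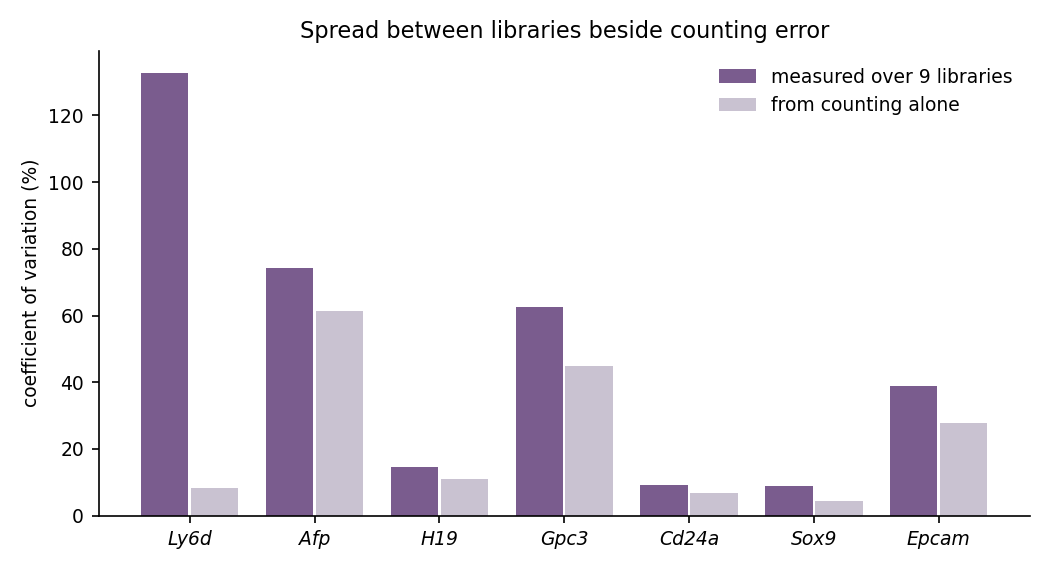
Coefficient of variation over the 9 libraries, in percent of the mean (y axis, from 0), for the 7 genes with reads, beside the value that counting error alone gives at the same depth. Ly6d reached 133% against 8.40% from counting, a value that includes the difference between its groups, and the other 6 lay between 1.21 and 2.07 times their counting value.

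Over the 9 livers the coefficient of variation of Ly6d was 133%, where counting its reads gives 8.40%, and this includes the difference between the groups for which it was chosen. Within the WD+alcohol group it was 76.7% where counting gives 6.37%, and within controls 67.3% where counting gives 44.0%. For H19 the coefficient was 14.7% against 11.0% from counting, for Cd24a 9.22% against 6.70%, and for Epcam 38.8% against 27.7%. Sox9, the gene with the most reads of the set (5010), varied by 8.89% against 4.30%.

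Ordered by mean level over the 9 livers, the genes ran from Sox9 (102 CPM) through Cd24a (42.1), Ly6d (26.8), H19 (15.7), Epcam (2.46), Gpc3 (0.93) and Afp (0.50) to Igf2, listed at 0. Libraries of this kind count transcript ends, so these levels are not divided by transcript length. In controls alone Ly6d (0.95 CPM) stood beside Gpc3 (1.06 CPM), and these neighbours did not differ beyond their spread. In WD+alcohol livers Ly6d (47.5 ± 36.4 CPM) had a mean next to that of Cd24a (42.1 ± 3.61 CPM), with an SD that spans it.

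The order of the WD+alcohol livers by Ly6d was 5, 1, 2, 3 and 4 from high to low. On the first principal component of all tested genes, which held 28.9% of the variance, their scores were 42.1, 10.0, 8.13, 2.07 and 19.1 for libraries 1 to 5, and the controls lay between -22.1 and -16.7. WD+alcohol 4 was thus the liver with the least Ly6d and the one nearest the controls on that component, and it also had the most reads (6643645). WD+alcohol 1, furthest out on that component, had the fewest reads (3635860). The part of depth in these orders was not tested.

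Among 11026 other genes that averaged 5 CPM or more, the 5 with levels most like those of Ly6d over the 9 libraries were Lamtor1, Cd48, Acot2, Apoa4 and Gas6. Their Pearson r with Ly6d, on log2(CPM + 1), was 0.97, 0.97, 0.96, 0.96 and 0.96, and Spearman's rho ran from 0.83 to 0.97. These r values describe genes taken for their likeness, and the difference between the groups enters all of them. Apoa4, an apolipoprotein of triglyceride-rich particles, rose from 89.8 ± 28.4 CPM (SD, n = 4) in controls to 701 ± 417 CPM (SD, n = 5), with 211 CPM in WD+alcohol 4 and 1348 CPM in WD+alcohol 5. Robust limma-trend gave Apoa4 an adjusted p of 0.0517, above the threshold. Acot2, a mitochondrial acyl-CoA thioesterase, rose from 19.6 ± 2.47 to 59.7 ± 21.1 CPM, and Gas6, the ligand of the receptor kinase Axl, from 14.2 ± 1.51 to 29.4 ± 8.18 CPM (same n). Lamtor1, a lysosomal scaffold protein, and Cd48, a leukocyte surface protein, were not called (log2 differences of 0.13 and 0.32). In all 5 of these genes WD+alcohol 4 was the lowest of its group. It was also the lowest for Ly6d, so this follows in part from how the genes were taken and is no further observation.

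Of the other members, Epcam was most like Ly6d (r = 0.84, rho = 0.78), followed by Afp (r = 0.72, rho = 0.48). The difference between the groups, for which Ly6d was chosen, enters both, and Afp had only 24 reads in all. H19 (r = 0.26), Sox9 (r = 0.07), Gpc3 (r = -0.12) and Cd24a (r = -0.27) showed little likeness, and such weak values over 9 libraries are no finding.

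**Figure D3:**
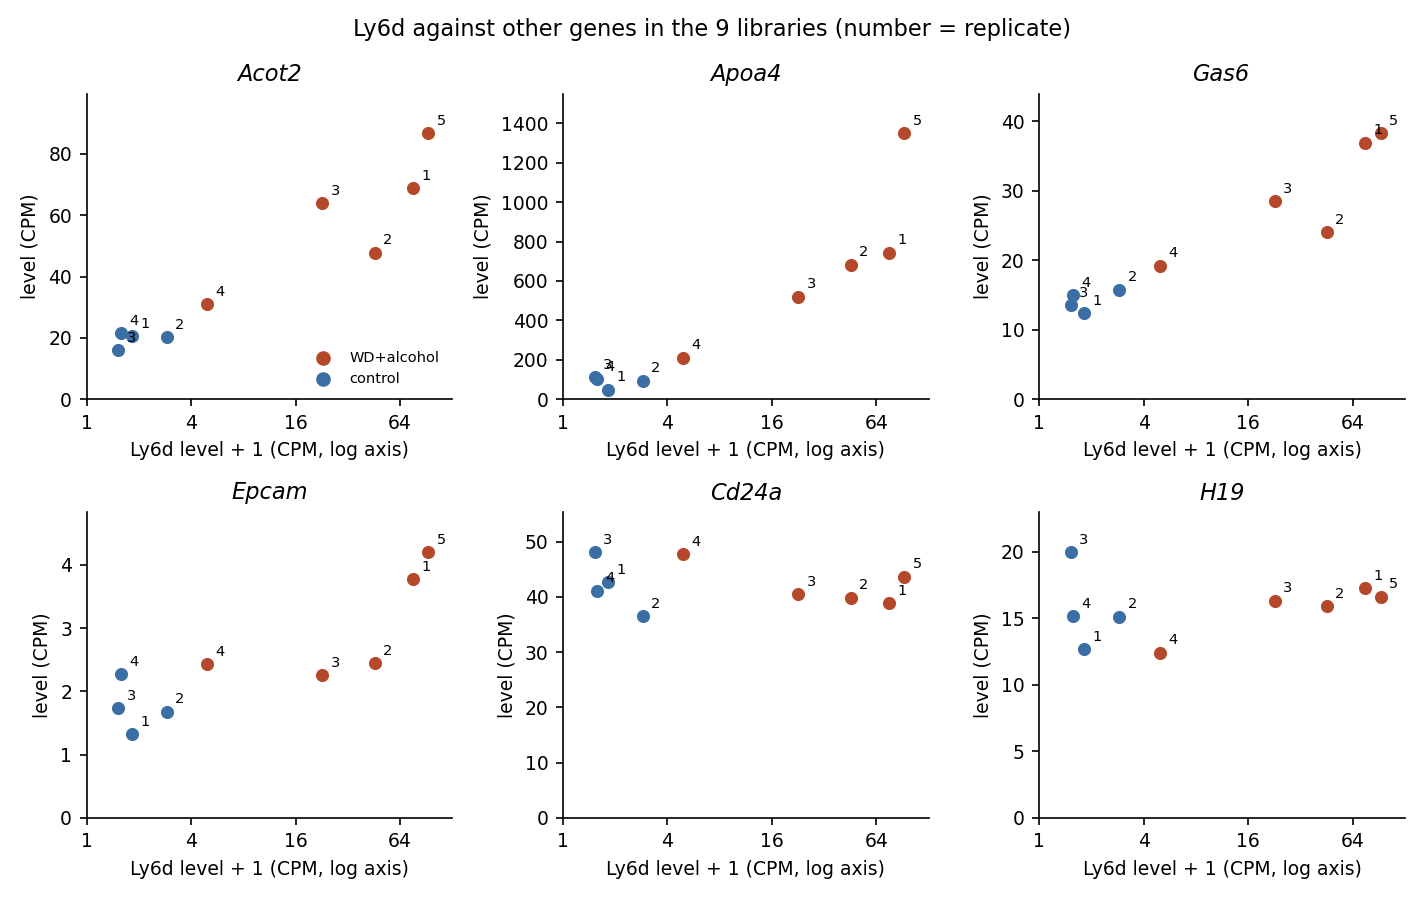
Ly6d level plus 1 in CPM (x axis, log scale) against the level in CPM (y axis, from 0) of Acot2, Apoa4, Gas6, Epcam, Cd24a and H19 in 4 control (blue) and 5 WD+alcohol (red) livers, with replicate numbers. Among WD+alcohol livers, Acot2, Apoa4 and Gas6 are lowest in library 4 and highest in library 5, as is Ly6d. Acot2, Apoa4 and Gas6 were taken for their likeness to Ly6d, so a shared order is partly built in. Cd24a and H19 have overlapping groups, with H19 lowest in library 4.

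Of the neighbours of Ly6d in the genome, only Lynx1 had a level that could be tested, and it was not called. The others were too low to be called. Lynx1, the Ly6-family gene next to Ly6d on chromosome 15 in the RefSeq order, was 3.03 ± 0.72 CPM (SD, n = 5) against 2.90 ± 1.12 CPM (SD, n = 4), and Slurp2, Lypd2, Ly6g6g and Gml, also near it, were listed at 0. Ly6k had 5 reads in all. Of 44 neighbours, 3 on each side of every member, 10 were tested, 0 were called higher and 1 lower (21 were listed at 0). The shares over all tested genes were 1.61% higher and 0.678% lower. The neighbour called lower was Alb, the albumin gene beside Afp, at 18876 ± 3597 CPM against 33497 ± 6566 CPM (SD, n = 5 and 4; limma-trend adjusted p = 0.0491). That call ended without any 1 library other than WD+alcohol 3 (adjusted p 0.0614 to 0.137), with no filter (0.442), with a pseudocount of 5 (0.0613) and with one total (0.0574).

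A list of 36 genes of the Ly6 and uPAR family, to which Ly6d belongs, had 10 measured members besides it. None was called by limma-trend or edgeR, 3 had an unadjusted p under 0.05, and DESeq2 called 2. Over all 14759 tested genes, limma-trend called 338 (2.29%), edgeR 315 and DESeq2 545, and limma-trend gave 1798 an unadjusted p under 0.05. These numbers are the background for such counts in this list and in those that follow. At such shares short lists often hold 0 calls, so a count of 0 is not read as absence of change. The median log2 difference of the list was 0.17, with 8 of 10 positive, against -0.001 over all tested genes. Ly6e, a widely expressed interferon-inducible member, was 253 ± 51.9 CPM (SD, n = 5) against 170 ± 37.4 CPM (SD, n = 4) and was called with DESeq2 (adjusted p = 0.0332), with one total (0.0381) and without control 4 (0.0446). Gpihbp1, which holds lipoprotein lipase on capillaries, was 25.9 ± 1.94 against 17.8 ± 7.10 CPM and was called without control 4 (adjusted p = 0.00451). Ly6a, the stem cell antigen Sca-1, was 90.1 ± 4.79 against 79.4 ± 10.5 CPM. In this list 14 genes were listed at 0.

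For the foetal genes, 19 known or possible regulators of Afp, H19 and Gpc3 were listed and all were measured, with 1 lower and 0 higher. The shares over all tested genes were 0.678% lower and 1.61% higher. Zhx2, a repressor that keeps Afp, H19 and Gpc3 low in the adult mouse liver, was 13.7 ± 2.83 CPM (SD, n = 5) against 13.4 ± 3.33 CPM (SD, n = 4). Its log2 difference was 0.03 (95% interval -0.37 to 0.43) and took a negative sign in some alternatives. Zbtb20, a repressor of Afp, was 359 ± 42.1 against 354 ± 62.7 CPM, a log2 difference of 0.03 (-0.22 to 0.28). Foxa3, a forkhead factor of hepatocytes, fell by 0.66 on the log2 scale, from 67.8 ± 15.5 to 42.0 ± 7.01 CPM (limma-trend adjusted p = 0.0306). The values of its groups overlapped, and the call ended with no filter (adjusted p = 0.0535) and on leaving out any 1 of 7 libraries (WD+alcohol 2, 3, 4, 5, control 1, 2, 4; 0.0584 to 0.0948).

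The median log2 difference of the wider imprinted gene network was 0.07. Of its 21 measured genes, 0 fell (0.678% over all tested genes) and 1 rose (1.61% over all tested genes). This was Cd81, a tetraspanin beside the imprinted cluster that holds Kcnq1ot1, at 315 ± 33.9 against 233 ± 26.6 CPM (limma-trend adjusted p = 0.0289). It was not called with no filter (adjusted p = 0.0527) and on leaving out any 1 of 6 libraries (WD+alcohol 1, 3, 5, control 1, 3, 4; 0.0590 to 0.0975). Dlk1, a foetal liver protein of another imprinted cluster, was below the test level at 0.99 ± 0.65 and 0.88 ± 0.63 CPM.

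Among 18 measured receptors, binding proteins and RNA-binding partners of Igf2, limma-trend, edgeR and DESeq2 called 0, and 5 had an unadjusted p under 0.05, Igf1 among them (log2 difference -0.37, adjusted p = 0.375). The receptor Igf2r, which clears the hormone, was 64.1 ± 4.63 against 64.4 ± 4.48 CPM. Igf1, the adult liver's own growth factor, was 530 ± 114 against 685 ± 155 CPM. Igfbp1, a binding protein that follows fasting and insulin, was 99.0 ± 75.8 against 138 ± 146 CPM, and its log2 difference of 0.21 had the opposite sign to the difference of the means and turned to -0.48 with edgeR and DESeq2. Igfbp4, the most abundant gene of the list, was 1124 ± 103 against 1273 ± 176 CPM. The foetal RNA-binding genes Igf2bp1 (17.6 ± 1.96 against 18.9 ± 1.42 CPM) and Igf2bp3 (27.0 ± 1.55 against 29.1 ± 1.66 CPM), and the foetal chromatin gene Hmga2 (214 ± 13.4 against 221 ± 21.6 CPM), had reads in every liver, at levels that hardly varied. Lin28b, of the same foetal programme, was listed at 0.

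Other genes of foetal liver and liver tumours gave 1 higher and 0 lower of 23 measured (median log2 difference 0.05), with 8 at an unadjusted p under 0.05. Over all tested genes, 1.61% were called higher, 0.678% lower, and 1798 of 14759 had an unadjusted p under 0.05. The count called in this list was 3 with DESeq2, 2 with one total, 3 without WD+alcohol 4 or control 3, 2 without control 4, and 0 without WD+alcohol 5 or control 1. The summed level of the list did not overlap, at 2356 to 2885 CPM with WD+alcohol and 1786 to 2162 CPM in controls. Most of the gap between the sums comes from Glul and Lcn2, so it is not read as a rise of the list as a whole. Glul, glutamine synthetase, which in the adult liver marks the hepatocytes around the central vein, rose from 513 ± 75.7 to 811 ± 147 CPM (limma-trend adjusted p = 0.0183), and lost its call on leaving out WD+alcohol 5 (adjusted p = 0.0597) or control 1 (0.0685). Lcn2, lipocalin 2, which is in both this list and that of neutrophil markers, was 190 ± 160 against 30.4 ± 35.6 CPM with overlapping groups (adjusted p = 0.0611). It was called without control 3 or control 4 (adjusted p = 0.0164 and 0.0455) and with one total (0.0364).

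Of the ductular markers, 10 of 17 were measured and 0 were called by limma-trend, edgeR or DESeq2, with 1 at an unadjusted p under 0.05 and a median log2 difference of -0.003. Krt19, a keratin of bile duct cells, was 3.15 ± 1.37 against 3.11 ± 1.29 CPM, and Krt7, another, was 0.62 ± 0.43 against 0.58 ± 0.31 CPM. Spp1, osteopontin, was 124 ± 8.42 against 118 ± 4.15 CPM, and Sox4, the most abundant gene of the list, 192 ± 20.9 against 192 ± 7.91 CPM. The summed level of the list ran from 333 to 396 CPM with WD+alcohol and from 338 to 363 CPM in controls. Most of that sum is Sox4 and Spp1, which cells other than bile duct cells also express.

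YAP and Notch target genes, a programme that includes Sox9 in liver, had 1 of 24 measured members higher and 0 lower. The shares over all tested genes were 1.61% higher and 0.678% lower. Axl, a receptor kinase, rose from 76.6 ± 4.77 to 102 ± 10.9 CPM (limma-trend adjusted p = 0.0305). The adjusted p of Axl was 0.0634 to 0.0962 when 1 of 5 libraries (WD+alcohol 1, 5, control 1, 2, 4) was left out. Of 28 cell cycle genes, all measured, 0 were called by limma-trend, edgeR or DESeq2 and 5 had an unadjusted p under 0.05. Limma-trend called 2.29% of all tested genes, a share at which a list of this size can hold 0 calls. Mki67, the Ki-67 proliferation antigen, was 28.2 ± 2.42 against 23.0 ± 1.81 CPM (limma-trend adjusted p = 0.220), and the cell cycle inhibitor Cdkn1a was 99.8 ± 31.6 against 81.6 ± 17.0 CPM. In controls Top2a stood at 77.9 ± 7.31 CPM and Cdk1 at 65.8 ± 8.86 CPM. What these levels reflect was not tested, so the list is not read as a measure of proliferation.

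**Figure D4:**
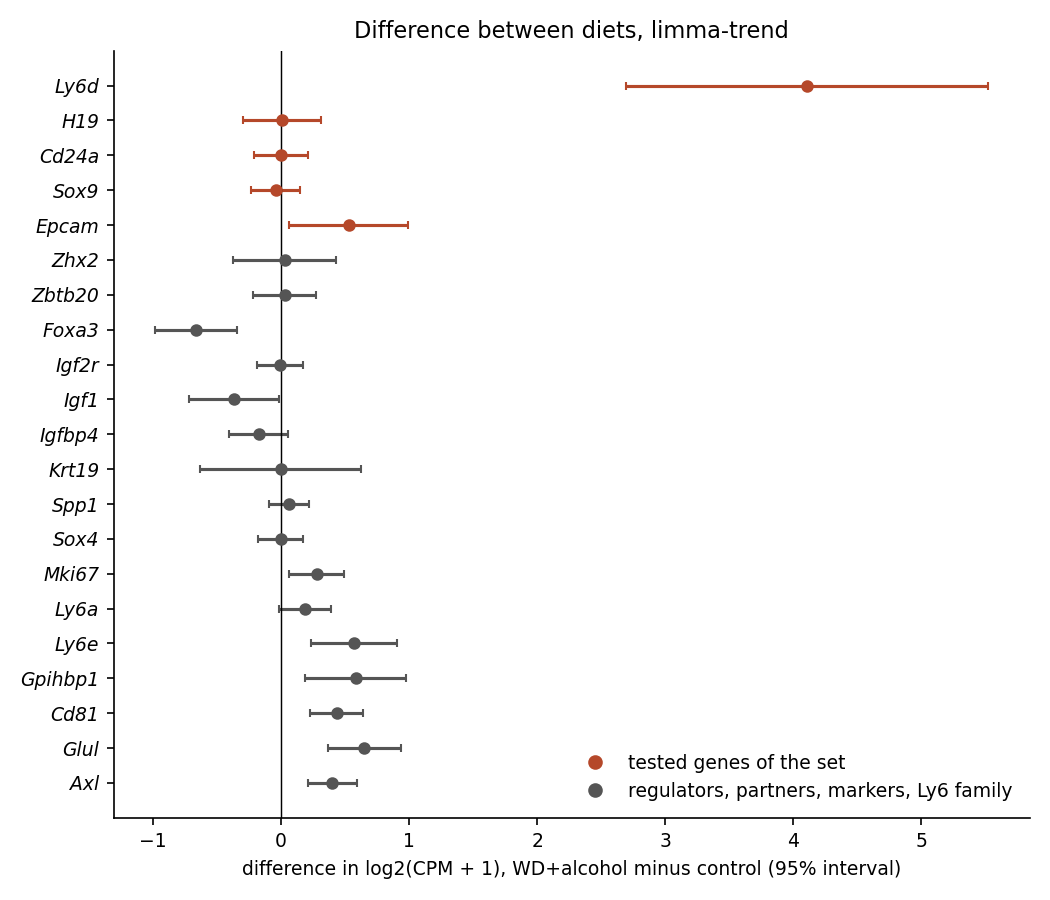
Difference in log2(CPM + 1) between WD+alcohol and control livers (x axis) with its 95% interval, not adjusted for the number of genes, for the 5 tested genes of the set (red) and for 16 regulators, partners, markers and Ly6-family genes (grey). Ly6d stands at 4.11, and H19, Cd24a and Sox9 lie within 0.04 of 0.

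Markers of other cell types in which Ly6d or Cd24a is known were read in the same libraries. B lineage markers summed to 291 to 355 CPM with WD+alcohol and 279 to 337 CPM in controls, and 0 of 12 measured were called by limma-trend, edgeR or DESeq2 (1 at an unadjusted p under 0.05). The early B lineage genes Rag1, Rag2 and Igll1 were listed at 0, as was Cd79a, and as for Igf2 and Aldoa such a 0 is not read as absence. No exon of Cd79a overlapped another gene in GENCODE M21. Vpreb1 had 13 reads in all. Other genes of early B or lymphoid cells had reads in every liver, Ebf1 at 24.6 ± 5.51 against 21.8 ± 3.03 CPM, Pax5 at 20.7 ± 4.43 against 22.4 ± 1.29 CPM, Dntt with 71 reads and Il7r with 94. Igkc was 199 ± 16.8 against 211 ± 24.8 CPM. Squamous epithelium markers summed to 64.1 to 92.4 CPM and 51.8 to 75.8 CPM, nearly all of it from Perp and Dsp. Of the 20 listed, 3 were measured and 0 were called by limma-trend, edgeR or DESeq2 (1 at an unadjusted p under 0.05), and 7 were listed at 0 (Dsg3, Krt6a and Krt15 among them), Krt5 had 6 reads in all and Krt14 had 24. Perp, a desmosome protein, was 47.8 ± 5.56 against 38.1 ± 5.22 CPM and was not called. Trp63 had 39 reads, Sfn was 2.93 ± 0.36 against 3.29 ± 0.41 CPM, and Sprr1a, below the test level, ran from 0.30 to 4.20 CPM with WD+alcohol and from 0 to 0.42 CPM in controls. The part of B lineage or squamous cells in the Ly6d level was not tested.

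Erythroid markers, relevant to Cd24a, summed to 1105 to 2903 CPM against 1040 to 1461 CPM with 0 of 9 measured called by limma-trend, edgeR or DESeq2 (4 at an unadjusted p under 0.05). Hba-a1, the most abundant of them over the 9 livers, was 675 ± 135 against 573 ± 51.7 CPM. The other globin genes were Hbb-bs at 732 ± 434 against 385 ± 117 CPM, Hba-a2 at 188 ± 94.8 against 112 ± 27.7 CPM and Hbb-bt at 107 ± 58.8 against 53.1 ± 13.4 CPM. These globin genes were the only 4 of the 9 measured erythroid markers with positive log2 differences. All the other measured ones were negative, and the median of the list was -0.05. Neutrophil markers summed to 89.9 to 505 CPM against 14.3 to 101 CPM. Lcn2 alone ran from 57.4 to 461 CPM against 1.65 to 75.9 CPM, so the sum mostly follows that gene. Of the 13 listed, 5 were measured and the others were below the test level. All 5 measured had positive log2 differences (median 0.70), of which 0 were called by limma-trend or edgeR and 1 by DESeq2 (3 at an unadjusted p under 0.05). Limma-trend called 2 with one total, 2 without control 3 or control 4, and 1 without WD+alcohol 1. Beside Lcn2, the calprotectin genes S100a8 and S100a9 were 11.2 ± 5.84 against 2.70 ± 2.28 CPM and 20.0 ± 3.05 against 12.3 ± 3.86 CPM. Of 15 measured stellate cell and fibroblast markers 2 rose, Dcn, the proteoglycan decorin, from 93.0 ± 14.3 to 163 ± 29.9 CPM, and Lum, the related lumican, from 2.77 ± 0.95 to 9.12 ± 4.25 CPM. Of all tested genes, 1.61% were called higher. The median log2 difference of the list was 0.26, with 11 of 15 positive. Its summed level overlapped, at 5665 to 6647 CPM with WD+alcohol and 5478 to 6409 CPM in controls. Its most abundant genes, Col1a2, Col1a1 and Acta2, had log2 differences of -0.05, -0.08 and -0.06, so no rise of the list as a whole is read. For Lum the adjusted p was 0.0510 with no filter and 0.0616 to 0.0676 on leaving out WD+alcohol 5 or 1 of controls 1 and 3.

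All 22 hepatocyte markers found in the table were measured, at a summed level of 57547 to 76399 CPM with WD+alcohol and 76619 to 105588 CPM in controls. Of these 5 fell and 0 rose (median log2 difference -0.32). Over all tested genes, 0.678% were called lower and 1.61% higher. The count called in this list was 2 with no filter, 8 with DESeq2, 3 without WD+alcohol 1 or 2 or control 3 or 4, and 2 without WD+alcohol 5 or control 2. The gluconeogenic enzyme Pck1 fell from 1914 ± 544 to 935 ± 115 CPM. The protease inhibitors Serpina1a (1176 ± 150 to 655 ± 140 CPM) and Serpina1c (5538 ± 685 to 2886 ± 1066 CPM) fell too, though as near-identical copies they may share reads. For Serpina1c the adjusted p was 0.0560 on leaving out WD+alcohol 5, 0.0568 on leaving out control 2, 0.0597 with no filter and 0.0990 with robust limma-trend. The part of these marker levels, hepatocyte, fibroblast and neutrophil, in the levels of the 8 genes was not tested.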

How the data were processed

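Polyadenylated RNA from 9 mouse livers was sequenced from the 3′ end (per the labels' protocols, with Trizol extraction and a Collibri 3′ mRNA kit). Per the submitters' processing notes, the tools were Trim Galore 0.6.0, cutadapt 1.18, STAR, HTSeq 0.11.0, edgeR 3.28.1 and R 3.6.3, with the build GRCm39. The strand setting, the annotation and the handling of reads with several matches are not given in the sources used here. The deposited table holds the authors' signal, TMM-scaled CPM per gene symbol, for 55253 symbols, and 0 of its columns lacked a sample. All positive values (100%) were whole multiples of the worth of 1 read in their column (relative tolerance 1e-06), so read counts were recovered from the deposited values, with 3635860 to 6643645 reads per library.

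The comparison was limma-trend (limma 3.58.1 in R 4.3.3) on log2(CPM + 1) over the 14759 genes averaging 1 CPM or more, two-sided, with Benjamini-Hochberg adjustment at 0.05 over all of them. The 95% intervals come from that fit and are not adjusted for the number of genes. Alternatives were other pseudocounts and filters, other scalings, robust limma-trend, a replicate block, edgeR 4.0.16 and DESeq2 1.42.0 on the recovered reads, and leaving out each library. No pair of libraries matched within sampling noise (smallest chi-square per degree of freedom 5.82). Nothing in the labels gives a batch. The labels count mice but do not tie each library to one, so p-values measure the spread between these samples, which may be technical in part.

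The 8 genes and the 14 gene lists were chosen with earlier results of these data known. Genes named besides the 8 are the called members of each list (at most 3), the most abundant measured member of a list with none called, a set of 13 genes named whatever their values, and the 5 most like Ly6d. Chosen after their values were seen were Hmga2, Igf2bp1, Igf2bp3, Lin28b, Aldoa, Alb, Ebf1, Pax5, Dntt, Il7r, Sfn, Sprr1a, S100a8, S100a9, Hbb-bs, Hbb-bt, Hba-a2, Col1a1, Col1a2, Acta2, Top2a, Cdk1 and the genes named as listed at 0 or by their few reads. Gene order and promoters come from RefSeq (GRCm38.p6) and exon overlap and the Ly6d coding sequence from GENCODE M21 (GRCm38). As the files use GRCm39, those tables served only for names, neighbours and sequences.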

Additional observations from a re-analysis of the deposited data

Results flagged for a closer look

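In 6 of 86 gene and group pairs (43 genes in both groups), 1 library stood further from the rest of its group than Dixon's 95% critical value allows. Chance gives about 1 in 20 for normally distributed values, and CPM of low genes need not be so distributed. The 86 pairs include those of Igf2, at 0 throughout, for which no library could stand apart. H19 was 12.4 CPM in WD+alcohol 4, below the 15.9 to 17.2 CPM of the other 4. Foxa3 was 54.4 CPM in WD+alcohol 1 against 37.4 to 40.0 CPM in the others. Krt7 was 1.35 CPM in WD+alcohol 1 against 0.30 to 0.60 CPM, on a handful of reads. Mki67 was 24.0 CPM in WD+alcohol 5 against 28.6 to 30.2 CPM. Sox4 was 228 CPM in WD+alcohol 2 against 174 to 188 CPM. Perp was 30.3 CPM in control 1 against 40.0 to 41.4 CPM. Ly6d, with the widest spread of the set, had no such single library in either group.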

How the results depend on the processing

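Ly6d, which was chosen for its difference so that its calls are no support, lost its call with robust limma-trend (log2 difference 4.11, adjusted p = 0.0680). Its log2 difference moved with the scale, to 4.82 at a pseudocount of 0.25, 2.72 at 5, 5.63 with edgeR and 5.66 with DESeq2. Leaving out 1 library gave 3.73 to 4.79. No other member was called in any alternative. H19 turned to -0.016 with the replicate block, -0.0142 with edgeR and -0.0149 with DESeq2, and ran from -0.085 to 0.12 without 1 library. Cd24a turned to -0.00093 with median-of-ratios scaling, -0.011 with the block, -0.0042 with edgeR and -0.0033 with DESeq2, and ran from -0.062 to 0.068. Sox9 turned to 0.015 with one total and ran from -0.10 to -0.01. Epcam ran from 0.43 to 0.62 without 1 library, and was 0.24 at a pseudocount of 5 and 0.76 with edgeR and DESeq2. Among other genes close to 0, Igf2r turned to 0.048 with one total, where Krt19 gave 0.037 and Sox4 0.052. Krt19 also gave 0.0036 at a pseudocount of 5, 0.0034 with edgeR and 0.0079 with DESeq2, and the block gave Sox4 0.0025 and Zhx2 -0.040. Igfbp1 (0.21) gave -0.48 with both edgeR and DESeq2. Without 1 library, Krt19 ran from -0.15 to 0.18, Igf2r from -0.052 to 0.034, Igfbp1 from -0.45 to 0.93, Sox4 from -0.066 to 0.031, Zhx2 from -0.10 to 0.16 and Zbtb20 from -0.062 to 0.14.

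Over all genes, 338 were called (238 higher, 100 lower), 365 higher with one total, 545 with DESeq2 (370 higher, 175 lower) and 201 to 387 without 1 library (higher 139 to 264, lower 59 to 123). The low ends were 201 without WD+alcohol 5 and 59 lower without control 2. Of 11 list genes called (5 higher, 6 lower), 5 (3 higher, 2 lower) were called with no filter, 8 higher with one total, 20 (11 higher) with DESeq2 and 3 to 13 without 1 library (higher 1 to 7, lower 2 to 6). The cause of these shifts was not tested. Same-numbered libraries share only a number (correlations of their deviations -0.01, -0.31, -0.21 and -0.01). A replicate block takes its differences only from the 4 numbers found in both groups, so it also loses WD+alcohol 5, and its log2 differences, sign changes included, equal those without that library. It left 112 genes (76 higher, 36 lower), 109 of them shared with the fit without it, and 1 list gene (0 higher, 1 lower), where leaving out WD+alcohol 5 alone gave 201 and 3. Depth limits Afp and Gpc3 most, with 24 and 48 reads over all libraries.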
